A study of Mus musculus with 9 samples.

Results

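The nuclear-encoded subunits of respiratory complexes II, III, IV and V were followed across age in mouse microglia, the resident macrophages of the brain. Members were all listed symbols that begin with Sdh (a to d), Uqcr, Cyc1, Cox (4 to 8) or Atp5, without pseudogene symbols ending in -ps, and with a log2 value of at least 3.32 in 3 or more libraries. The rule used names and this minimum level but no difference between ages. Of 47 such symbols in a table of 22036 genes, 46 passed, 4 of complex II, 9 of complex III, 16 of complex IV and 17 of complex V. The annotation calls 45 of them protein-coding and 1, Cox6c2 of complex IV, a processed pseudogene. Cox4i2 was the lowest member, between 4.23 and 4.40 over the libraries, and the single symbol below the minimum, Cox7b2, lay between 1.71 and 1.74. RNA sequencing was done on microglia sorted by flow cytometry from the brains of wild-type female C57BL/6 mice with no treatment named in the labels. Young mice were 6 months old, middle-aged mice 15 months and old mice 23 months, with 3 libraries at each age. Each library held RNA of 3 mice pooled before extraction, and the errors below therefore describe differences between pools of animals. The marker or gate of the sort was not given in the sources used here.

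Mitochondria make ATP by passing electrons along complexes that sit in their inner membrane. Complex II is succinate dehydrogenase, an enzyme of the tricarboxylic acid cycle that feeds electrons into ubiquinone, and it is the one respiratory complex built from nuclear-encoded subunits alone. Complex III passes electrons from ubiquinone to cytochrome c, complex IV passes them to oxygen, and both pump protons that drive complex V, the ATP synthase. Complexes III, IV and V each include subunits made inside mitochondria, whereas their other subunits, many of them small, are encoded in the nucleus. Activated macrophages are known to shift between respiration and glycolysis. The subunits encoded by mitochondrial DNA were not analysed here.

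Nuclear genes for respiratory subunits are known to share promoter motifs of the NRF1 and ETS (GABP) factors, so the members' promoters were searched for these. Windows are printed for some of the members with a match. RefSeq promoters (build GRCm38.p6) were found for 33 of the 46 members. Missing from that table were Sdhc, Cyc1, Uqcrb, Uqcrc2, Uqcrq, Cox4i1, Cox4i2, Cox6c, Cox6c2, Atp5a1, Atp5f1, Atp5mpl and Atp5s. The 250 bases before the start were searched on either strand, and a gene counted where any of its listed starts had a match. The ETS letters CCGGAAG were found in 9 of the 33 members and in 7.83% of all 27025 genes of that table. These 9 were Sdhd, Uqcr11, Uqcrh, Cox6a1, Cox6b1, Atp5e, Atp5h, Atp5j and Atp5l. The NRF1 letters, GCGCA, any base and GCGC, were found in 7 members (Sdha, Sdhd, Cox6a1, Atp5c1, Atp5g2, Atp5h and Atp5k) and in 4.23% of all genes. The ERR letters NAAGGTCA stood before Atp5g3 and Atp5l and in 4.69% of all genes, and the SP1 letters GGGGCGGGG before 4 members and in 11.8%. The YY1 letters, ANAT followed directly by GGCGGC, stood before 0 members and in 0.559% of all genes. None of the 5 motifs overlapped another in the windows printed here. Windows of 30 bases are given 5′ to 3′ on the strand of the gene, with the match in capitals, and each of these genes lies on the minus strand. Atp5j has 2 listed starts, and the match lies before 1 of them.
Atp5j, ETS, chr16:84835020-84835049: tagctgagggacCCGGAAGcacttaccctc
Uqcrh, ETS, chr4:116075071-116075100: actacgaggagtatgccgcaCTTCCGGcca
Uqcr11, ETS, chr10:80406870-80406899: tttctctcctccCCGGAAGtagatgtcaat
Cox6b1, ETS, chr7:30626125-30626154: ctcctctcgcagCTTCCGGccagtcggaat
Cox6a1, ETS, chr5:115348959-115348988: cgtccccatttccgCTTCCGGcgcgccggt
Sdhd, ETS, chr9:50603878-50603907: accgtctcctgcCTTCCGGttcacgcttca
Cox6a1, NRF1, chr5:115349101-115349130: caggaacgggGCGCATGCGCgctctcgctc
Sdha, NRF1, chr13:74350276-74350305: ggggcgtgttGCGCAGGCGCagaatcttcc
Atp5k, NRF1, chr5:108434430-108434459: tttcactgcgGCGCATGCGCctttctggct
Where the capitals read CTTCCGG the match is on the opposite strand. A match describes these letters only, and no binding was measured. Cox7b, Cox5b, Cox8a, Cox7a2l and Atp5b, also described below, were searched and had neither an NRF1 nor an ETS match. In complex II, Sdha had 3 NRF1 matches, Sdhd had 1 match of each kind, Sdhb had neither and Sdhc could not be searched. Any relation between matches and the differences with age was not tested.

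Values were used on the log2 scale of the deposited table of normalised counts, whose transformation was not stated and on which members' differences can be smaller than in the authors' deposited comparisons, and the depth of each library is unknown, since the read totals were not given in the sources used here. Along the first principal component over the 14956 genes tested, which held 34.7% of the variance, old replicate 3 stood at 29.9 and the other 8 libraries between -14.4 and 5.90. Among the members, old replicate 3 was the highest old library for 32 of 46 genes and old replicate 2 the lowest for 32, so the old group had a wide spread. Of the microglia markers, 11 were in the table and each passed the filter on low values, with Csf1r the most abundant. Their summed linear level was lower in old libraries without overlap, from 1701000 to 1942000 in young, from 1440000 to 1650000 in middle-aged and from 1387000 to 1633000 in old. Their median old minus young log2 difference was -0.20, with 5 of 11 above 0, and limma called Fcrls and Siglech lower and C1qa higher. The mean log2 deviation of these 11 from their gene means overlapped, from -0.006 to 0.161 in young and from -0.091 to 0.030 in old libraries. The summed linear level of 6 T and NK cell markers lay between 1107 and 1346 in young and between 1413 and 1901 in old libraries. That of 8 border macrophage markers lay between 77680 and 82810 in young and between 45810 and 67400 in old libraries. Of 5 astrocyte markers the sums were also lower without overlap, from 19530 to 20680 in young and from 15570 to 17530 in old. Their mean deviations overlapped, from -0.123 to 0.115 in young and from -0.143 to -0.036 in old libraries. The 8 monocyte markers had overlapping sums and a median old minus young difference of 0.37, with Plac8 and Fn1 called higher by limma. F13a1 is in both the monocyte and the border macrophage list and is the highest gene of each. The 6 endothelial markers had overlapping sums, with 4 differences above 0 and Flt1 called higher. Their mean deviations ran from -0.121 to -0.041 in young and from 0.090 to 0.112 in old libraries. The sums of 10 neutrophil markers ran from 267500 to 496800 in young, from 438000 to 997900 in middle-aged and from 217500 to 494600 in old libraries, with Ngp the highest. The neuron markers Rbfox3, Gad1 and Slc17a7 were below the filter. The part of these marker levels in the results below was not tested.

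Atp5j and Cox6c rose in old against young microglia, each by 0.50 on the log2 scale, and most other nuclear subunits of complexes III, IV and V had positive differences that did not pass the test. Over the 46 members the median log2 difference was 0.24, a ratio of 1.18, and 40 were above 0, beside a median of -0.0086 and 47.4% above 0 over all genes tested. By limma with Benjamini-Hochberg adjustment over all genes, 2 members were called higher at an adjusted p under 0.05, where 1.7% of all genes were, and 0 lower, where 0.301% were. At an unadjusted p under 0.05, 22 members were higher, beside 9.07% of all genes, and 0 were lower, beside 7.69%. The old and young libraries did not overlap for 23 members that were higher, beside 12.2% of all genes, and for 1 that was lower, Atp5s, beside 12.3%. At an adjusted p under 0.05, 14 members were higher in the authors' deposited table, beside 4.72% of its genes, and 0 were lower, beside 2.9%. In bulk RNA a smaller number of cells of a type and less RNA per cell cannot be told apart. Without old replicate 3, 0 members were called by limma, beside 169 of all genes, and the median was 0.18. There 25 members did not overlap and were higher (18.1% of all genes). Without old replicate 2, 9 members were called, beside 308 of all genes, and the median was 0.33. There 33 members did not overlap and were higher (18.2%).

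**Figure D1:**
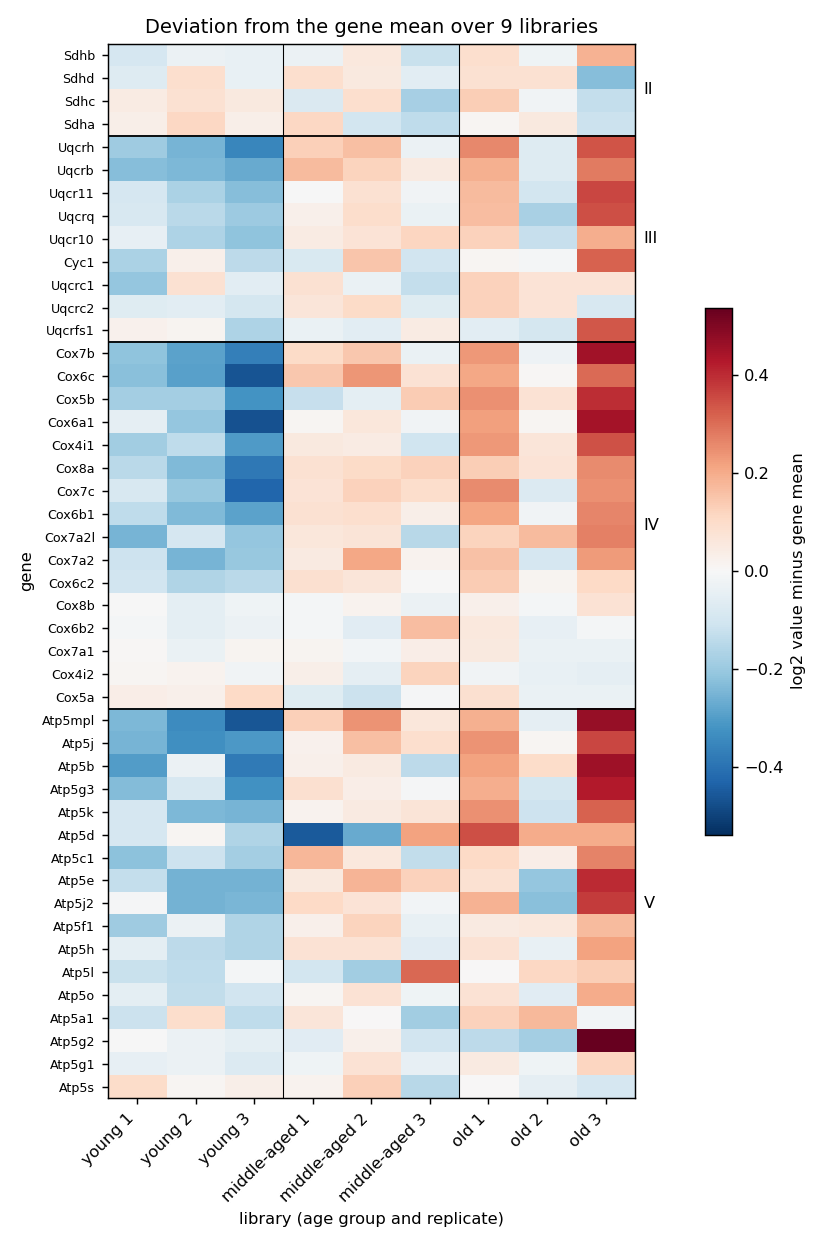
Each row is a member, grouped by complex and ordered by its old minus young difference, and each column is a library; the colour is the log2 value minus the gene's mean over the 9 libraries. Most rows of complexes III, IV and V are blue in the young columns and red in old replicates 1 and 3, with old replicate 2 paler, whereas in complex II the row of Sdhb has this order and those of Sdha, Sdhc and Sdhd do not.

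The 4 subunits of complex II had a median old minus young difference of -0.038, which was 0.040 without old replicate 3. Sdha, the flavoprotein that oxidises succinate, had log2 values of 14.60, 14.68 and 14.60 in young, 14.68, 14.47 and 14.43 in middle-aged and 14.58, 14.62 and 14.45 in old libraries. The ages overlapped, and the old minus young difference was -0.076 (SE 0.089, adjusted p = 0.709, limma). Sdhb, the iron-sulfur subunit that carries the electrons onward, stood at 13.25, 13.31 and 13.30 in young and at 13.43, 13.32 and 13.53 in old libraries. Its old libraries lay above the young ones by a narrow margin, with a difference of 0.14 (SE 0.087, adjusted p = 0.47, limma). The membrane anchors Sdhc and Sdhd, which hold the haem and the ubiquinone site, had differences of -0.064 and -0.013, each with an SE of 0.10. Old replicate 3 was the lowest of the 9 libraries for Sdhd, at 12.73, beside 12.89 to 13.05 in the others. None of the 4 was called by limma or in the authors' deposited table in any pair of ages.

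In complex III all 9 members had positive old minus young differences, with a median of 0.21. By limma 0 of them were called, beside 2% of all genes in either direction. At an unadjusted p under 0.05, 3 were higher, beside 9.07% of all genes. The largest difference was that of Uqcrh, the hinge protein near the cytochrome c docking site. It stood at 12, 11.94 and 11.84 in young, 12.32, 12.35 and 12.16 in middle-aged and 12.45, 12.12 and 12.53 in old libraries. Every young library was below the other 6, and old replicate 2 was the lowest of those 6. The difference was 0.44 (SE 0.12, adjusted p = 0.0878, limma), and in the authors' deposited table it was 0.55 with an adjusted p of 0.0161. Uqcrb, a small subunit next to the ubiquinone pocket, stood at 11.24, 11.23 and 11.20 in young, 11.64, 11.59 and 11.52 in middle-aged and 11.66, 11.40 and 11.75 in old libraries. The young libraries were again lowest without overlap, with an old minus young difference of 0.38 (SE 0.10, adjusted p = 0.0977, limma). Among the small subunits, Uqcr11 (0.31, SE 0.12), Uqcrq (0.25, SE 0.13) and Uqcr10 (0.21, SE 0.10) completed the group of 5, whose median was 0.31. The 2 core proteins that frame the complex, Uqcrc1 and Uqcrc2, had a median of 0.13. The 2 subunits that carry the electrons, Cyc1 with its haem and Uqcrfs1 with the Rieske cluster, had a median of 0.15. Uqcrfs1 had the smallest difference of the complex, 0.10 (SE 0.13), and its old replicate 3, at 9.03, stood above the other 8 libraries, which lay between 8.53 and 8.74. Without that library the difference of Uqcrfs1 was -0.037.

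Complex IV had the largest median difference between old and young, 0.37. By mean member deviations instead of medians, complex IV minus complex V was nearly the same in young (-0.014) and old (-0.0041) libraries. Cox6c was the 1 member of complex IV that passed the limma test, beside 1.7% of all genes called higher. Cox6c encodes a small membrane subunit (chr15:35925886-35938246, minus strand, 3 exons in the transcript used). It stood at 11.27, 11.20 and 11.03 in young, 11.64, 11.73 and 11.57 in middle-aged and 11.70, 11.50 and 11.80 in old libraries. The young libraries lay below the other 6, and the middle-aged and old ones overlapped. Cox6c rose by 0.50 (SE 0.11, 1.42-fold, adjusted p = 0.0454, limma) from young to old, and the authors' deposited table gives 0.65 with an adjusted p of 0.0021. Without old replicate 3 its difference was 0.44 with an adjusted p of 0.0984, and leaving out 1 library at a time it stayed called in 1 of 9 fits.

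Of the 10 ubiquitous complex IV subunits, 9 had positive old minus young differences and the median was 0.42. Cox7b, a small membrane subunit encoded on the X chromosome, had the largest difference of complex IV, 0.51 (SE 0.12, adjusted p = 0.0696, limma). Its values were 10.96, 10.89 and 10.81 in young, 11.28, 11.32 and 11.14 in middle-aged and 11.41, 11.15 and 11.63 in old libraries, so that young was lowest without overlap. Cox5b, a zinc-binding subunit on the matrix side, stood at 9.15, 9.15 and 9.01 in young, 9.21, 9.28 and 9.47 in middle-aged and 9.58, 9.41 and 9.73 in old libraries. Its young libraries were the lowest, and its old and middle-aged libraries overlapped between 9.41 and 9.47. Cox4i1, the largest nuclear subunit and the site at which ATP is known to act on the enzyme, stood at 13.76, 13.81 and 13.64 in young, 14, 13.99 and 13.84 in middle-aged and 14.18, 14.01 and 14.29 in old libraries. It was the 1 member whose 3 ages followed each other without overlap in both steps, with an old minus young difference of 0.43 (SE 0.097, adjusted p = 0.0541, limma). The remaining ones were Cox6a1 (0.47, SE 0.13), Cox8a (0.41, SE 0.097), Cox7c (0.38, SE 0.12), Cox6b1 (0.37, SE 0.098) and Cox7a2 (0.29, SE 0.11), and for each of these 5 young and old libraries did not overlap.

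Cox5a was the exception among the ubiquitous subunits. It stood at 7.11, 7.10 and 7.18 in young, 7.01, 6.96 and 7.07 in middle-aged and 7.16, 7.04 and 7.04 in old libraries. Its old minus young difference was -0.052 (SE 0.074, adjusted p = 0.763, limma), and the middle-aged libraries lay below the young ones. The isoforms known from restricted tissues, Cox4i2 (lung), Cox6b2 (testis), Cox7a1 and Cox8b (heart and skeletal muscle), had low levels and a median difference of 0.016, the highest being 0.055 for Cox8b (SE 0.034). Cox7a1 had the smallest difference of the complex, 0.0015 (SE 0.034). For old against young the authors' deposited table gives Cox8b 0.22 (SE 0.17) and Cox6b2 0.11 (SE 0.23). It gives Cox4i2 -0.14 (SE 0.13) and Cox7a1 0.0091 (SE 0.15). The small differences and errors at these low levels may therefore belong to the scale of the values, which was not tested. Of the remaining 2, Cox7a2l, a Cox7a relative known to join complexes III and IV into supercomplexes, differed by 0.37 (SE 0.093, adjusted p = 0.0756, limma), with 12.92, 13.08 and 12.96 in young and 13.29, 13.34 and 13.44 in old libraries. Cox6c2, a single-exon copy of Cox6c that is annotated as a processed pseudogene, differed by 0.22 (SE 0.085).

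In complex V, the ATP synthase, 16 of 17 members had positive old minus young differences, with a median of 0.28. Atp5j was its 1 member that passed the limma test, beside 1.7% of all genes called higher. Without old replicate 3 the median was 0.18. Atp5j encodes a subunit of the peripheral stalk, which holds the catalytic head still while the rotor turns (chr16:84827866-84835625, minus strand, 5 exons in the transcript used). It stood at 11.92, 11.84 and 11.86 in young, 12.19, 12.33 and 12.26 in middle-aged and 12.41, 12.18 and 12.53 in old libraries. The young libraries lay below the other 6 with a clear gap, and old replicate 2 was the lowest of those 6. Atp5j rose by 0.50 (SE 0.10, 1.41-fold, adjusted p = 0.0379, limma), and the authors' deposited table gives 0.64 with an adjusted p of 0.00069. Without old replicate 3 the difference was 0.42 with an adjusted p of 0.0810, and leaving out 1 library at a time it stayed called in 2 of 9 fits. The other stalk subunits Atp5f1, Atp5h and Atp5o had differences of 0.22 (SE 0.085), 0.20 (SE 0.099) and 0.16 (SE 0.098).

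The largest difference of all members was that of Atp5mpl, a small membrane proteolipid of the ATP synthase, at 0.55 (SE 0.13, adjusted p = 0.0682, limma). Its values were 10.01, 9.91 and 9.79 in young, 10.38, 10.49 and 10.31 in middle-aged and 10.44, 10.20 and 10.72 in old libraries. The young libraries were the lowest, and old replicates 2 and 3 enclosed the middle-aged values. The other small membrane subunits Atp5k, Atp5j2 and Atp5l, which shape the dimer of the enzyme, had differences of 0.35, 0.28 and 0.17, each with an SE between 0.12 and 0.15. Within the catalytic head, Atp5b, the catalytic beta subunit, stood at 12.54, 12.81 and 12.46 in young, 12.87, 12.89 and 12.70 in middle-aged and 13.06, 12.94 and 13.30 in old libraries. Its old libraries were above all others, and young and middle-aged ones overlapped, with an old minus young difference of 0.50 (SE 0.12, adjusted p = 0.0707, limma). Its partner Atp5a1, the alpha subunit, had a difference of 0.15 (SE 0.10), and the young and old libraries of Atp5a1 overlapped. Of the central rotor, the gamma subunit Atp5c1 differed by 0.31 (SE 0.099), Atp5d by 0.33 (SE 0.15) and Atp5e by 0.31 (SE 0.14).

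Atp5d varied within middle age more than any other member, with 10.01, 10.19 and 10.68 there, beside 10.30 to 10.47 in young and 10.66 to 10.81 in old libraries. Its middle-aged libraries lay on both sides of the young ones. The 3 genes for the c ring, which turns as protons pass, make the same mature protein, and their differences were 0.39 (SE 0.13) for Atp5g3, 0.097 (SE 0.090) for Atp5g1 and 0.10 (SE 0.17) for Atp5g2. For Atp5g2, old replicate 3 stood at 8.48 and the other 8 libraries between 7.76 and 7.97, and without that library the difference of Atp5g2 was -0.13. Atp5s, a coupling factor that is not part of the enzyme's core, had the one negative difference of the group, -0.096 (SE 0.10), with 9.17, 9.08 and 9.10 in young and 9.07, 9.02 and 8.98 in old libraries. Old and young libraries of Atp5s did not overlap, the highest old value being 9.07 and the lowest young one 9.08.

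**Figure D2:**
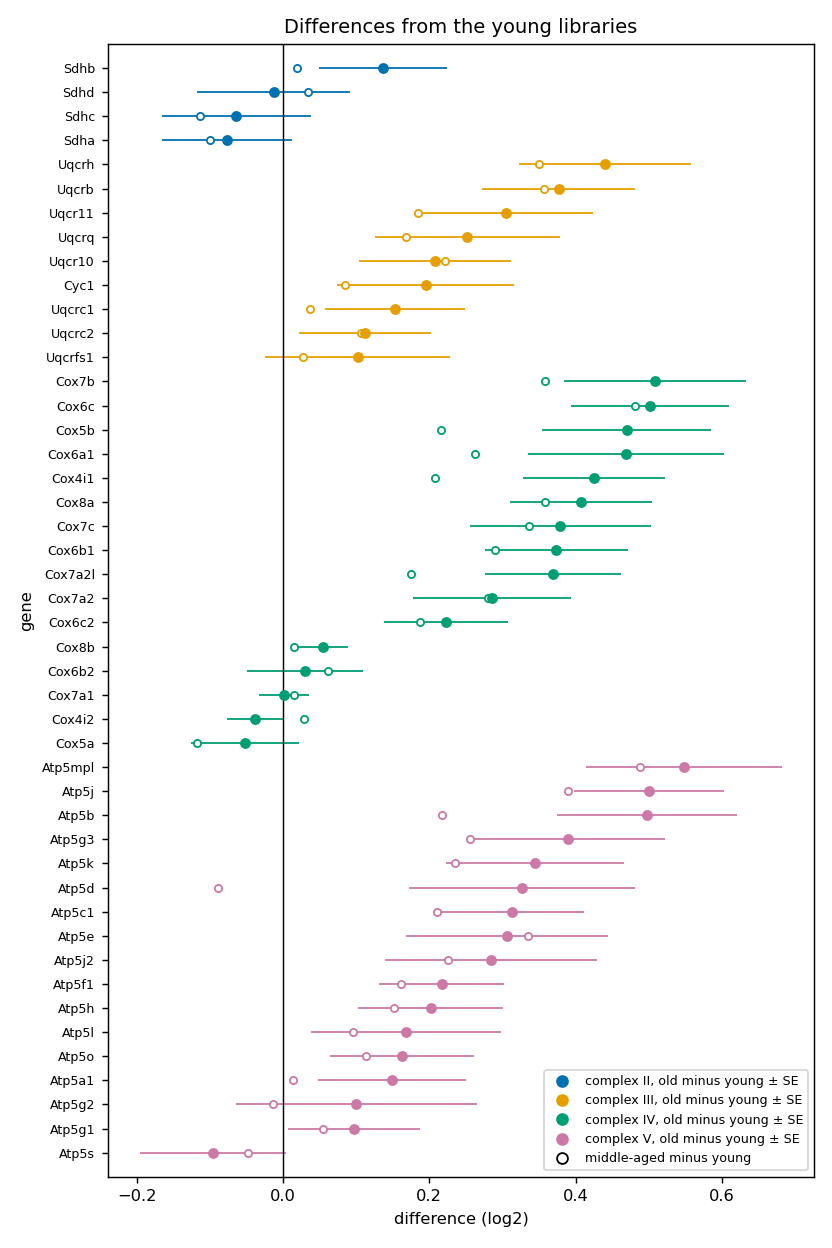
Filled points are old minus young differences on the log2 scale with their limma standard errors, and open points are middle-aged minus young differences, for each member by complex. In complexes III, IV and V most points lie to the right of 0, up to 0.55 for Atp5mpl, and the open points of Atp5d and Cox5a lie to the left.

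Positive differences were already present at 15 months. Against young, the middle-aged libraries had a median member difference of 0.17, with 40 of 46 above 0, and against middle-aged the old ones had a median of 0.064, with 39 of 46 above 0. At 15 months the 10 neutrophil markers had a median difference from young of 0.62, with 10 above 0, and the 8 monocyte markers one of 0.49, with 7 above 0, none of them called by limma, and their part in the members' differences was not tested. These comparisons share the middle-aged libraries, and both comparisons against young share the young ones, so their values are only set side by side. Cox6c differed by 0.48 (SE 0.11) at 15 months and 0.50 at 23 months, Atp5mpl by 0.49 (SE 0.13) and 0.55, and Atp5j by 0.39 (SE 0.10) and 0.50. Cox8a differed by 0.36 at 15 months and 0.41 at 23 months, and Uqcrb by 0.36 and 0.38. For some other members the value of the later step was above that of the first. Atp5b differed by 0.22 (SE 0.12) at 15 months and by a further 0.28 (SE 0.12) from 15 to 23 months, Cox5b by 0.22 and 0.25, Cox4i1 by 0.21 and 0.22, and Atp5d by -0.089 (SE 0.15) and 0.42 (SE 0.15).

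None of the members passed the limma test in either step. From young to middle-aged the test called 0 members higher, beside 0.114% of all genes, and 0 lower, beside 0% of all genes, and 12 were higher at an unadjusted p under 0.05, beside 6.2%, and 0 were lower, beside 5.15%. The young and middle-aged libraries did not overlap for 21 members that were higher, beside 11.6% of all genes, namely 5 small subunits of complex III, 10 members of complex IV and 6 of complex V. They did not overlap for 1 lower member, Cox5a, beside 10% of all genes. At an adjusted p under 0.05, 0 members were lower in middle age in the authors' deposited table, beside 2.53% of its genes, and 9 were higher, beside 3.26%, namely Uqcrb, Uqcrh, Cox6b1, Cox6c, Cox7b, Cox8a, Atp5e, Atp5j and Atp5mpl. From middle-aged to old, limma called 0 members higher, beside 0.16% of all genes, and 0 lower, beside 0.0134%, with 3 higher at an unadjusted p under 0.05 (Cox4i1, Atp5b and Atp5d), beside 5.42%, and 0 lower, beside 4.76%. In that step the libraries of 3 members did not overlap and were higher (Cox4i1, Cox7a2l and Atp5b), beside 6.47% of all genes, which is near the members' own share, and 0 were lower, beside 6.41%. In that step the authors' deposited table called 0 members, beside 0.859% of its genes higher and 0.466% lower. Without old replicate 3 the median of the later step was 0.015, with 29 of 46 above 0. The difference between the steps was tested directly by limma, and 0 members passed, beside 0% of all genes, with 1, Cox6c, at an unadjusted p under 0.05, beside 7.9% of all genes.

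The complexes were then compared with each other within each library, through the mean deviation of their members from the gene means. Complex IV stood at -0.10, -0.15 and -0.22 in young, 0.036, 0.054 and 0.028 in middle-aged and 0.15, 0.003 and 0.20 in old libraries. Every young library was below every other one, and old replicate 2 was the lowest of the older 6. Complex III ran from -0.19 to -0.099 in young and from -0.057 to 0.24 in old libraries, and complex V from -0.19 to -0.12 in young and from -0.021 to 0.27 in old ones. Complex II overlapped between all ages, with values from -0.020 to 0.063 in young, from -0.12 to 0.025 in middle-aged and from -0.070 to 0.079 in old libraries.

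Complex IV minus complex II was -0.083, -0.21 and -0.22 in young, 0.013, 0.029 and 0.15 in middle-aged and 0.068, -0.020 and 0.27 in old libraries. The young libraries were lowest without overlap, here and for complexes III and V minus complex II. Complex IV minus complex V stayed between -0.063 and 0.030 in all 9 libraries with the ages overlapping, and complex V minus complex III between -0.033 and 0.036. These are descriptions with no test, since complex II has only 4 members and they share their libraries with the others. The cytosolic ribosomal proteins, 80 short and abundant transcripts, moved in the same libraries, from -0.28 to -0.11 in young and at 0.17, -0.004 and 0.26 in old ones. Their part in the result was not tested.

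**Figure D3:**
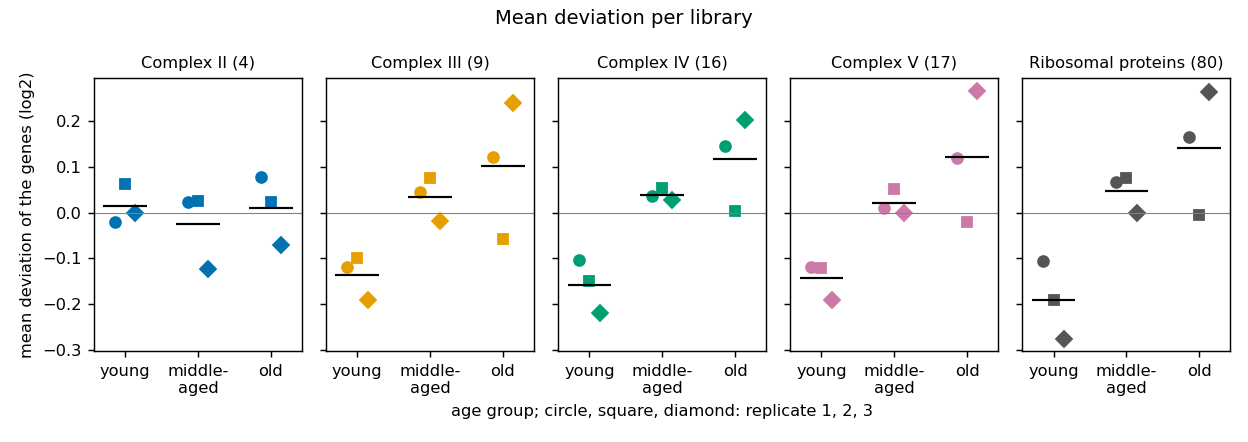
Points are libraries, with circle, square and diamond for replicates 1, 2 and 3, and bars are the means of 3 libraries; the vertical axis is the mean log2 deviation of the genes of each set from their means over all libraries. Complexes III, IV and V and the ribosomal proteins are lowest in the young libraries, with old replicate 3 the highest, and complex II shows no order by age.

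Levels between genes were compared per kilobase of transcript, using 1 GENCODE M21 transcript per gene. Cox4i1 was the highest member at a log2 level of 14.33 per kilobase and Cox4i2 the lowest at 4.73, around a median of 11.7, and 32 members were above 10. By this measure the ubiquitous isoform of each complex IV pair was far above its restricted relative. Cox6b1 stood at 12.81 and Cox6b2 at 7.77, Cox8a at 11.84 and Cox8b at 6.13, and Cox7a2 at 12.11 and Cox7a1 at 5.80. These gaps are far larger than the median SD within an age, 0.087 on the log2 scale. Of the c ring genes Atp5g3 stood at 10.78, Atp5g2 at 8.39 and Atp5g1 at 7.83.

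A few essential subunits were listed at levels well below their partners in the same complex. Cyc1 (7.72) and Uqcrfs1 (8.25) lay below the complex III median of 12.37, and Cox5a (7.71) lay below the complex IV median of 10.98, in levels per kilobase. The transcript used for Atp5g1 is long, 4715 bases, and that for Uqcrq, 1521 bases, so their per-kilobase levels depend on that choice. Where reads could be shared with near-identical copies a level is uncertain. At 95% identity over at least 200 bases, 31 members had no copy among other annotated transcripts, 12 had 1 or 2 and 3 had more (Uqcrb, Atp5h and Atp5l). Cox6c has 2 pseudogene copies and shares 97.0% with Cox6c2, Cox5b shares 99.2% with Gm11273, and Cox7c shares 99.4% with Gm10012, whereas Atp5j, Cyc1, Uqcrfs1 and Cox5a have none. The median old minus young difference was 0.21 for the 31 members without a copy, 0.33 for the 12 with 1 or 2 and 0.20 for the 3 with more. Whether reads were counted by strand was not given in the sources used here.

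**Figure D4:**
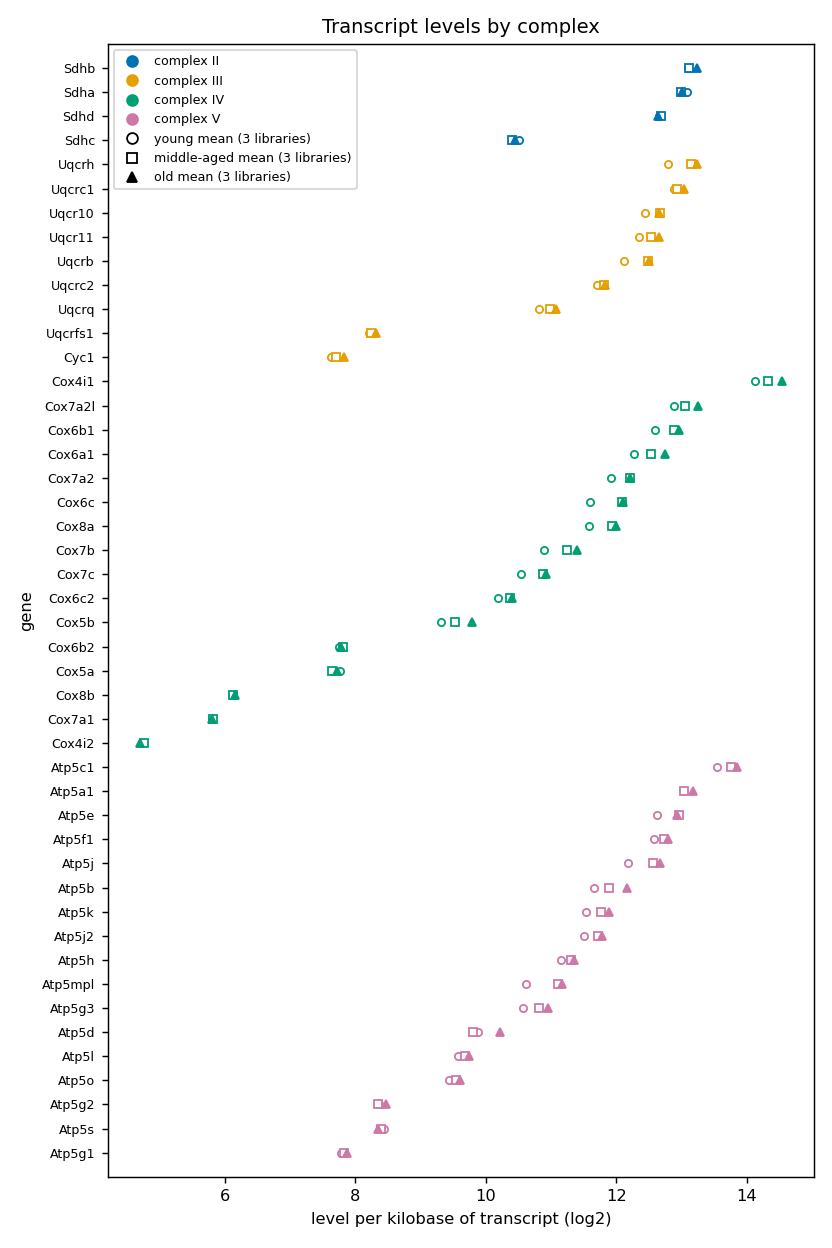
Open circles, open squares and filled triangles are the young, middle-aged and old means of 3 libraries, on a log2 scale per kilobase of transcript, for each member by complex. The members span 4.73 to 14.33, and the differences between ages are small beside the differences between genes.

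The median difference was larger among members with short transcripts, and to a lesser degree among short transcripts in general. For the 14 members below 600 bases the median old minus young difference was 0.31, beside 0.030 for the 704 tested genes of that length. For the 14 members from 600 to 1000 bases it was 0.33 beside 0.030, and for the 14 from 1000 to 2000 bases 0.21 beside 0.0098. The 4 members of 2000 bases or more, Sdha, Sdhc, Atp5a1 and Atp5g1, had a median of 0.017 beside -0.030. Across the 46 members, which share their libraries, the Spearman correlation of length with the difference was -0.25 for old against young and -0.41 for middle-aged against young, beside -0.23 and -0.17 across all genes. For old against middle-aged it was 0.22 over the members and -0.12 over all genes. Complex II holds 2 of the 4 longest members, and its shorter ones Sdhb (1142 bases) and Sdhd (1231 bases) had differences of 0.14 and -0.013, beside the median of 0.21 for members of similar length. With the length trend of all genes removed from each library, an alternative chosen after seeing the data, the medians were -0.046, 0.17, 0.32 and 0.24 for complexes II to V. Atp5j (0.45, adjusted p = 0.0377, limma) and Cox6c (0.44, adjusted p = 0.0492, limma) were called there as well.

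**Figure D5:**
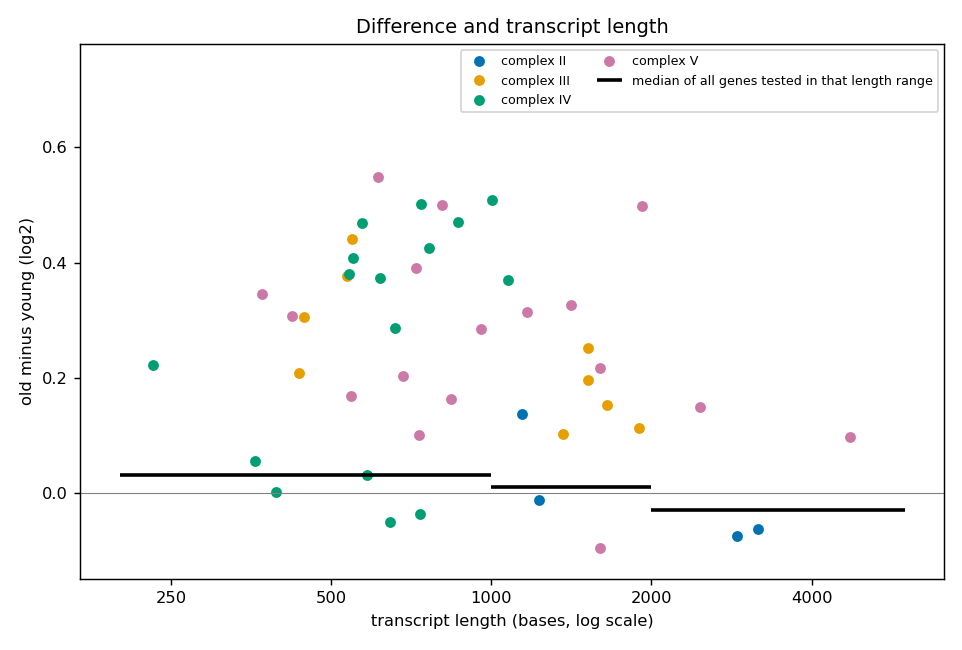
Each point is a member, with its transcript length on a log axis and its old minus young log2 difference, and black bars are the medians of all genes tested in each length range. Most members of complexes III, IV and V lie above the bar of their range, and complex II lies near it.

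Other genes of the same pathway were taken from lists. Among 35 subunits of complex I, which takes electrons from NADH, the median old minus young difference was 0.22, with 30 above 0. Limma called 0 of them, beside 2% of all genes in either direction. At an adjusted p under 0.05, 4 were higher in the authors' deposited table, beside 4.72% of its genes. There 0 were lower, beside 2.9%. Old and young libraries did not overlap for 15 higher ones, beside 12.2% of all genes, and for 0 lower ones, beside 12.3%. Ndufa1 had the smallest p, with a difference of 0.53 (SE 0.12, adjusted p = 0.0531, limma). Among 13 genes for cytochrome c and ubiquinone synthesis the median was -0.0030, and 1 was called, beside 2% of all genes in either direction. Coq7, a hydroxylase of ubiquinone synthesis, rose by 0.47 (SE 0.098, adjusted p = 0.0396, limma), from means of 9.03 in young to 9.25 in middle-aged and 9.51 in old libraries. The 13 enzymes of the tricarboxylic acid cycle had a median of 0.00048 with 0 called, and Ogdh had the smallest p, with a difference of -0.20 (SE 0.12, adjusted p = 0.437, limma).

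Factors that help to build or regulate the complexes were given as a list for each complex. The complex V list also holds regulators and Usmg5, and the complex IV list Ndufa4, so not all genes in them are assembly factors. Medians were 0.17 for the 4 genes listed for complex II, -0.051 for 6 of complex III, 0.067 for 22 of complex IV and 0.12 for 6 of complex V. Limma called 0 in each list, beside 2% of all genes in either direction. The smallest p in these lists was that of Coa5, a complex IV assembly factor, with a difference of 0.42 (SE 0.10, adjusted p = 0.0723, limma). The other lists were led by Sdhaf4 (0.18, SE 0.10), Uqcc2 (0.28, SE 0.12) and Usmg5 (0.26, SE 0.099), none of them called. Of 7 carriers and channels that move adenine nucleotides and phosphate the median was 0.13 with 0 called by limma, and Slc25a3, which brings in the phosphate for ATP synthesis, differed by 0.54 (SE 0.135, adjusted p = 0.073, limma). The 13 regulators of mitochondrial biogenesis had a median of -0.058 and 0 were called by limma. The authors' deposited table called 2 of them lower, beside 2.9% of its genes. Pprc1, a coactivator of the NRF1 pathway, had the smallest p there, with a difference of -0.44 (SE 0.12, adjusted p = 0.0888, limma). The 73 mitochondrial ribosomal proteins had a median of 0.088 with 0 called by limma. The 80 cytosolic ones had a median of 0.36 with 15 called higher, beside 1.7% of all genes.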

How the data were processed

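RNA was made into libraries with a kit for very low input, per the labels' protocols. The submitters' processing notes name DESeq2 1.16.1, STAR 2.5.3, cutadapt 1.13, CASAVA and the mm10 build, while the role of each, the read counter, the annotation and any transformation were not given in the sources used here. Log2 values in the deposited expression table run from -2.14 to 20.05. For every 2 ages a deposited table of the authors holds, per the file headers, the log2 fold change with its error, the base mean (a mean signal over libraries), a test statistic or score and the raw and adjusted p-value. No test on counts was run, since the deposited values did not resolve into whole reads.

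The deposited log2 values entered the fit without change. Genes were tested where they had a value of at least 3.32 (log2 of 10) in 3 or more libraries, which kept 14956 genes. One model over all 9 libraries, with the 3 ages as groups, used limma 3.58.1 (R 4.3.3, variance trend, two-sided, Benjamini-Hochberg over all genes tested, threshold 0.05), and the script was tested on simulated data. With 3 libraries against 3, the smallest p of an exact permutation test is 0.1. The members and gene lists were chosen with earlier results of these data known. Named by rule were the called members, the 3 largest and the 1 smallest old minus young difference per complex, all of complex II, isoform sets and, per list, the called genes or the smallest p; the others are named to account for every member. Atp5mpl was counted as a member, not in the complex V list, and Ndufa4 stands in 2 lists (complex I and complex IV). Transcript lengths and gene coordinates come from GENCODE M21 on GRCm38, and a level per kilobase is the log2 value minus log2 of the length in kilobases. Alternatives covered filters, pseudocounts, a replicate block, 2 ages alone, library weights, variance settings, scaling and leaving out each library. Figures were drawn with matplotlib 3.10.9.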

Additional observations from a re-analysis of the deposited data

How the results depend on the processing

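The count of 2 members called for old against young stood beside 299 of all genes. It was 0 without a filter on low values, beside 170 genes, and 0 with only the libraries of the 2 ages, beside 153. It was 4 without the variance trend, beside 356 genes, and 21 with library weights from limma, beside 1609. With the replicate block it was 0, beside 185 genes. The block rests on replicate numbers alone. Same-numbered libraries of different ages correlated between -0.24 and 0.23, with 3 of 9 pairs over 0.1. Young replicate 1 with middle-aged replicate 3 reached 0.42, and young replicate 2 with middle-aged replicate 3 reached -0.44. These values show no clear pairing by number, but with 3 libraries per age they cannot exclude that same-numbered pools were handled together. Leaving out each library in turn gave 0 to 9 calls. There were 9 without old replicate 2, beside 308 of all genes, and 1 without middle-aged replicate 3, beside 322. Without each of the other 7 there were 0. For middle-aged against young the count of 0, beside 17 of all genes, became 5 with library weights, beside 311. Leaving out libraries moved the median of complex II between -0.078 and 0.040 and that of complex V between 0.18 and 0.35, with the highest value of complex II and the lowest of complex V without old replicate 3. For the other scalings and pseudocounts the old against young count was 2. With a stricter filter, a value of at least 5.64 in 3 libraries, it was 3 of 43 members tested, beside 366 of all genes. Among the named members 528 values kept direction and side of the threshold, 23 were newly past it, 21 no longer past it and 13 changed sign, in 7 members of which none was called as reported. With library weights Atp5g2 stood at -0.062, Sdhc at 0.023 and Sdhd at 0.084. With the length trend removed Cox6b2 stood at -0.030, Cox7a1 at -0.063 and Cox8b at -0.0099, and with each library centred on its median Cox7a1 stood at -0.0026. Without old replicate 3 Atp5g2 stood at -0.13, Sdhd at 0.091 and Uqcrfs1 at -0.037, and without young replicate 2 Sdhd at 0.035 and Cox7a1 at -0.013. Leaving out each library in turn, Sdhd ran from -0.064 without old replicate 1 to 0.091, and Cox7a1 from -0.030 without old replicate 1 to 0.018 without old replicate 3. The cause was not tested for any of these. Each arm holds 3 pools of mice and the depth is unknown, which limits what a single gene can show.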

Other observations

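Pseudogene symbols left out by the rule were measured in the same table. Uqcrh-ps1 lay between 5.19 and 5.32 over the 9 libraries and Atp5l-ps1 between 4.76 and 4.88, with old minus young differences of 0.060 and 0.048 on the log2 scale, neither called by limma, beside 0.44 for Uqcrh and 0.17 for Atp5l. Uqcrh and Atp5l had far higher mean values, 12.19 and 8.79. Whether the scale of the values narrows differences at low levels was not tested, so these differences are only set side by side. Atp5k-ps2, Atp5l2-ps and Uqcrh-ps2 were below the filter on low values.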
